A study of Mus musculus with 8 samples.

Results

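Signalling by fibroblast growth factors (FGFs) was followed in tissue around the lateral ventricle of Lrig1 KO and WT mice through 9 genes of the 54307 in the count table. These were the receptors Fgfr1, Fgfr2, Fgfr3 and Fgfrl1, the ligands Fgf1, Fgf2, Fgf9 and Fgf10, and the secreted carrier Fgfbp3. The receptors and ligands were taken as listed FGF genes, and Fgfbp3 was chosen by its gene counts, since it was lower in each KO mouse than in any WT mouse. Its difference between the genotypes is therefore given as a description without a test. The tissue encompassed the ventricular-subventricular zone (V-SVZ) of 1 hemisphere, and polyA-selected RNA of each mouse was sequenced in bulk.

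The WT group held 4 mice (3 female and 1 male) and the Lrig1 KO group held 4 mice (2 female and 2 male), all 8 weeks of age and on the 129-Elite strain background. KO mice were homozygous for a CreERT2 cassette inserted in exon 1 of Lrig1, which makes the deletion constitutive and present in every tissue, and WT mice were littermates with 2 intact alleles. Gene counts summed to between 47887437 and 61826150 in WT mice and between 52664769 and 74482334 in KO mice. The counts were normalised by edgeR's TMM method to CPM, counts scaled to the size of each library. The targeted gene, Lrig1, was at 45.6, 13.5, 41.4 and 34.3 CPM in WT mice and at 1.41, 4.15, 1.17 and 2.96 CPM in KO mice (replicates 1 to 4), a log2 fold change of -3.80 (SE 0.52), so the labels held in all mice. Its adjusted p was 0.286 (edgeR's quasi-likelihood test, adjusted over all genes by Benjamini-Hochberg), and 0.000176 when sex was a covariate. Markers of V-SVZ cells were counted in each mouse: summed levels of 8 neuroblast markers lay between 460 and 570 CPM, and those of 9 ependymal markers between 25.7 and 62.5 CPM. Markers of the neighbouring striatum summed to between 2354 and 7568 CPM, so the dissected tissue held striatal neurons too.

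FGFs are secreted proteins that bind receptor tyrosine kinases together with heparan sulfate on the cell surface. The bound receptor is phosphorylated and passes the signal through the adaptor FRS2 to the RAS-ERK, PI3K and PLCγ pathways. FGF2, together with epidermal growth factor, is the standard mitogen for growing neural stem cells in culture, and FGFR3 is known as a marker of astrocytes and radial glia. FGF-binding proteins release FGFs from heparan sulfate and carry them to their receptors.

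The 3 receptor kinases exist in forms that differ in the end of the third immunoglobulin-like domain, where either the IIIb or the IIIc exon is used. The choice sets which ligands bind: FGF10 acts on the IIIb form of FGFR2, whereas FGF9 acts on IIIc forms and on FGFR3-IIIb, and FGF1 acts on all forms. The IIIb exon of Fgfr2 and both exons of Fgfr3 are shown because these are the receptors in which transcripts with the IIIb exon and without the IIIc exon had reads. Each line gives the alternative exon in capitals, with the last 12 bases of the exon before it and the first 12 bases of the exon after it in lower case, 5′ to 3′ on the sense strand, as in the Gencode M21 transcript of the same length as in the deposited files (Fgfr2-211, Fgfr3-203 and Fgfr3-201).
Fgfr2 IIIb: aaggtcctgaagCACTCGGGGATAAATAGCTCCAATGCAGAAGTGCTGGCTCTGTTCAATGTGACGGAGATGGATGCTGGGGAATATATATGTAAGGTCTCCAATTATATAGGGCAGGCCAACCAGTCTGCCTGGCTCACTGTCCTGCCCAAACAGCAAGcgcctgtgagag
Fgfr3 IIIb: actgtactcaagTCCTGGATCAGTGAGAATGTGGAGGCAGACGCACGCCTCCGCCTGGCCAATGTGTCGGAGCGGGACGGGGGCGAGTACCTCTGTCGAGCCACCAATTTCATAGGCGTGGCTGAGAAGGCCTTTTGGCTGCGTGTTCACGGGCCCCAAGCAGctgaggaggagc
Fgfr3 IIIc: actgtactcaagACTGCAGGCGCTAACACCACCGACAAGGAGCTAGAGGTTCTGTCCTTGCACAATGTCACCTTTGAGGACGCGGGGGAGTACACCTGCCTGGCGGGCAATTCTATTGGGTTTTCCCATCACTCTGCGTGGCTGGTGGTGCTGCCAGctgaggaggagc
The IIIb exon had 148 bases in Fgfr2 and 151 bases in Fgfr3, and the IIIc exon had 145 bases in both. In a global alignment the IIIb and IIIc exons of Fgfr3 shared 75 bases (48.7% of the alignment), and the IIIb exons of Fgfr2 and Fgfr3 shared 77 bases (51.0%).

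The receptors and Fgf1 were the most abundant of the 9 genes, and Fgf10 the least. Levels between genes are compared as TPM, a measure that divides by transcript length. Over the 8 mice the mean level was 32.7 TPM for Fgfr3, 30.6 TPM for Fgf1, 25.5 TPM for Fgfr2, 21.3 TPM for Fgfr1 and 16.8 TPM for Fgfrl1. Fgf9 followed at 9.84 TPM, then Fgfbp3 at 3.75 TPM, Fgf2 at 3.02 TPM and Fgf10 at 1.54 TPM. The mean level of Fgfr3 was thus 21.3 times that of Fgf10, and that of Fgf1, a ligand without a signal peptide, was 10.1 times that of Fgf2. Neighbours in this order overlapped in range over the 8 mice, except Fgf2 (2.32 to 3.78 TPM) and Fgf10 (0.959 to 2.27 TPM), whose ranges were separate. Within a mouse the order was steadier, since Fgfr1 was above Fgfrl1 in 8 of 8 mice, Fgfrl1 above Fgf9 in 8 of 8 mice and Fgf9 above Fgfbp3 in 8 of 8 mice. Fgfr3 was above Fgf1 in 5 of 8 mice and Fgf1 above Fgfr2 in 6 of 8 mice, so these leading genes had no fixed order. The order also depends on how reads were divided among transcripts, since short ones raise TPM for a given count. Fgfrl1-204, of 438 bases, held a mean of 38.7% of the TPM of Fgfrl1. Fgfr2-221, of 790 bases, held 11.3% of that of Fgfr2. In CPM, Fgfr1 (62.8 in WT and 63.5 in KO mice) was above Fgfr2 (54.8 and 49.6).

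**Figure D1:**
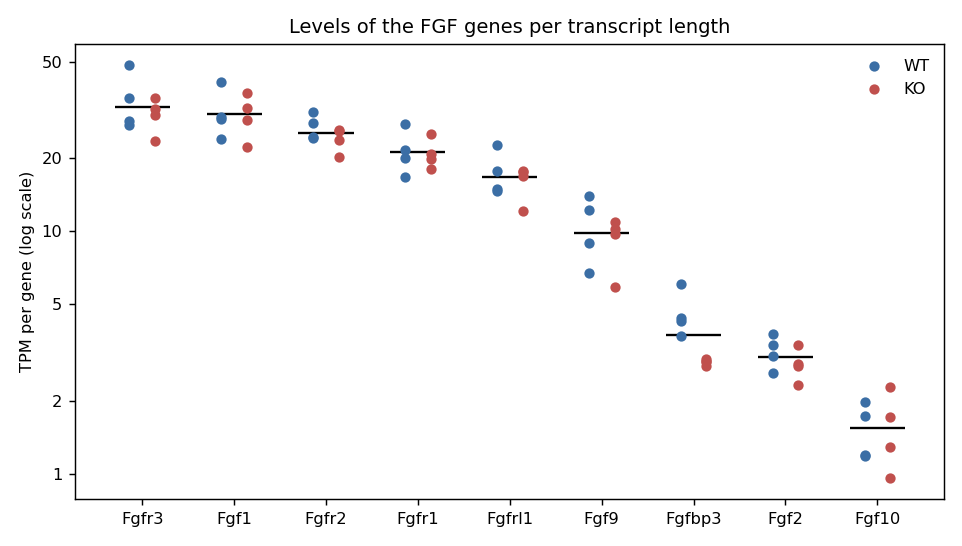
Level of each FGF gene in TPM (log scale) in the 4 WT and 4 KO mice, one point a mouse, with a line at the mean over the 8 mice. Means run from 32.7 TPM for Fgfr3 to 1.54 TPM for Fgf10, and Fgfbp3 is the gene whose WT and KO points are separate.

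None of the 8 receptors and ligands passed the test for a difference between KO and WT mice. The number with an adjusted p under 0.1 was 0 of 8 (edgeR's quasi-likelihood test, Benjamini-Hochberg adjustment over 17669 genes), where 0.00566% of all genes tested passed, which was 1 gene. The number with an unadjusted p under 0.05 was also 0 of 8, against 1.88% of all genes (1.08% lower and 0.809% higher in KO), and DESeq2 called 0 of 8 as well. Log2 fold changes lay between -0.15 and 0.07 with standard errors between 0.097 and 0.24, and 5 of the 8 were below 0, against 50.3% of all genes. KO and WT values overlapped in all 8 genes, and 1.53% of all genes tested had groups that did not overlap. For adjusted p, unadjusted p and overlap, counts of 0 in 8 genes lie near the shares over all genes. In bulk tissue, fewer cells of a type and less RNA per cell cannot be told apart, which holds for each level given here.

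**Figure D2:**
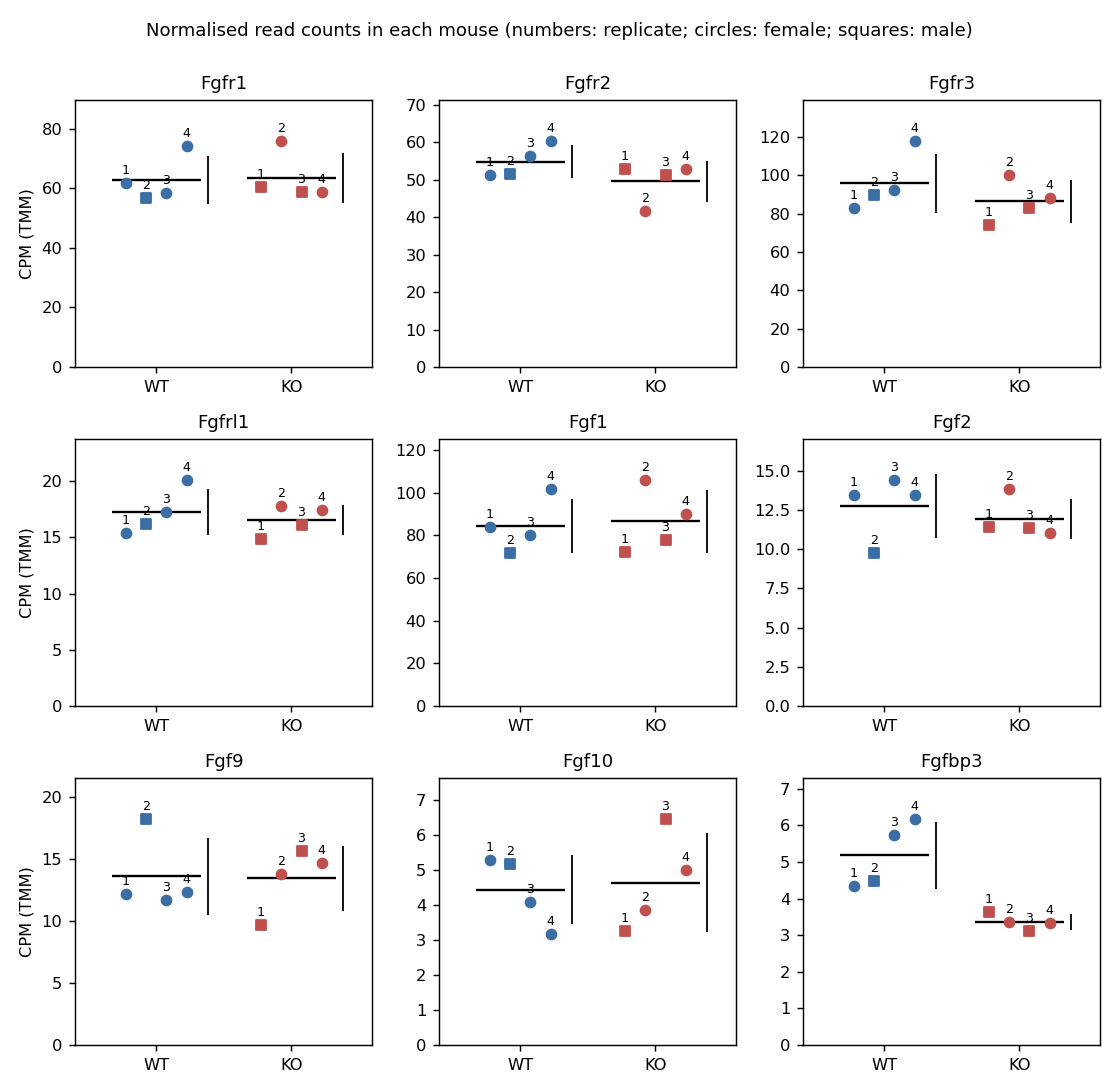
TMM-normalised CPM of the 9 FGF genes in each mouse, with the replicate number above each point, circles for female and squares for male mice, a horizontal line at the group mean and a vertical line of 1 SD on either side (n = 4 a group). WT and KO points intermingle in the 8 receptors and ligands, and the lowest WT mouse is above the highest KO mouse in Fgfbp3 (4.34 against 3.63 CPM).

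Fgfr1, a main receptor for FGF2 in neural progenitors, was at 61.7, 56.7, 58.5 and 74.4 CPM in WT mice and at 60.5, 75.9, 58.7 and 58.9 CPM in KO mice. A single mouse of each genotype, WT replicate 4 and KO replicate 2, was high, and the other 6 mice lay between 56.7 and 61.7 CPM. The group means were 62.8 ± 7.97 CPM in WT and 63.5 ± 8.30 CPM in KO mice (SD, n = 4 each), with a log2 fold change of 0.02 (SE 0.12; adjusted p = 0.9998, edgeR).

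Fgfr2, which in the adult brain is expressed by oligodendrocytes, was at 51.2, 51.5, 56.3 and 60.3 CPM in WT mice and at 52.8, 41.5, 51.1 and 53.0 CPM in KO mice. KO replicate 2 was the lowest of the 8 mice and WT replicate 4 the highest. The log2 fold change was -0.14 (SE 0.097; unadjusted p = 0.169, adjusted p = 0.9998, edgeR), the smallest unadjusted p of the 8 genes. Without these 2 mice, an alternative chosen after seeing the data, it was -0.02. The summed level of 8 oligodendrocyte markers was also lowest in KO replicate 2, at 5956 CPM, against 7029 to 7665 CPM in the other 7 mice, and its part in the level of Fgfr2 was not tested.

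Fgfr3 was at 83.1, 89.4, 92.5 and 118 CPM in WT mice and at 73.9, 100.2, 82.8 and 88.2 CPM in KO mice. As with Fgfr1, WT replicate 4 and KO replicate 2 were the highest mice of their groups. The log2 fold change was -0.15 (SE 0.13; adjusted p = 0.9998, edgeR), and it ran from -0.23 without KO replicate 2 to -0.03 without WT replicate 4. Summed levels of 10 markers of astrocytes and neural stem cells, the cells known for Fgfr3, lay between 4680 and 5365 CPM in WT and between 4400 and 4775 CPM in KO mice.

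Fgfrl1, a receptor that binds FGFs and heparan sulfate but lacks the kinase domain, was at 15.4, 16.2, 17.2 and 20.1 CPM in WT mice and at 14.8, 17.8, 16.1 and 17.4 CPM in KO mice. The mice ranked much as they did for Fgfr3, with WT replicate 4 the highest and KO replicate 1 the lowest in both genes. Its log2 fold change of -0.06 (SE 0.11; adjusted p = 0.9998, edgeR) was 0.02 without WT replicate 4.

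Among the ligands, Fgf1 was at 83.7, 71.6, 80.4 and 101.8 CPM in WT mice and at 72.3, 106.0, 77.6 and 90.1 CPM in KO mice. The highest mice were again KO replicate 2 and WT replicate 4, and the group means of 84.4 ± 12.7 CPM in WT and 86.5 ± 14.97 CPM in KO mice (SD, n = 4 each) differed by less than the spread in either group. The log2 fold change was 0.04 (SE 0.14; adjusted p = 0.9998, edgeR).

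Fgf2, the mitogen used in neural stem cell culture, was at 13.4, 9.79, 14.4 and 13.5 CPM in WT mice and at 11.4, 13.9, 11.3 and 11.1 CPM in KO mice. WT replicate 2, a male, was the lowest, and 3 of the 4 KO mice lay between it and the other WT mice. The log2 fold change was -0.10 (SE 0.14; adjusted p = 0.9998, edgeR), and -0.02 with sex as a covariate. Fgf2 overlaps Nudt6 on the opposite strand, and whether strand was used in counting is not given in the sources used here, so reads of the shared part cannot be told apart. The same holds for exons that Fgfr1 shares with Gm16159, Fgfr3 with G630022F23Rik and Fgf10 with Gm16263.

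Fgf9, a secreted ligand made by neurons and glia, was at 12.2, 18.2, 11.7 and 12.4 CPM in WT mice and at 9.69, 13.8, 15.7 and 14.7 CPM in KO mice. WT replicate 2 was far above the other WT mice, and KO replicate 3 was the highest KO mouse. These 2 mice also had the highest summed levels of 8 markers of cortical excitatory neurons, 2020 and 988 CPM, against 151 to 605 CPM in the other 6 mice. Their part in the level of Fgf9 was not tested. The log2 fold change over all mice was -0.02 (SE 0.19; adjusted p = 0.9998, edgeR), and in female mice alone it was 0.24.

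Fgf10, a ligand of the IIIb forms, was at 5.29, 5.16, 4.09 and 3.18 CPM in WT mice and at 3.24, 3.86, 6.46 and 4.997 CPM in KO mice, from 156 to 487 estimated counts. Its SD was 22.3% of the mean in WT and 30.5% in KO mice, the latter the widest of the receptors and ligands among KO mice. The log2 fold change was 0.07 (SE 0.24; adjusted p = 0.9998, edgeR), the widest standard error of the 8 genes.

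Fgfbp3 was at 4.34, 4.47, 5.73 and 6.18 CPM in WT mice and at 3.63, 3.35, 3.12 and 3.34 CPM in KO mice. All KO mice lay below all WT mice, which is what chose the gene, and 0.877% of all genes tested were lower in KO with no overlap. The means were 5.18 ± 0.917 CPM in WT and 3.36 ± 0.212 CPM in KO mice (SD, n = 4 each), a ratio of 0.649 and a log2 fold change of -0.62. The lowest WT mouse and the highest KO mouse were 0.703 CPM apart, and the spread was wider among WT mice (SD 17.7% of the mean) than among KO mice (6.30%). The values rest on 241 to 303 estimated counts in WT and 186 to 235 in KO mice, all of them on 1 transcript. In female mice alone the means were 5.42 CPM (n = 3) and 3.35 CPM (n = 2).

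For Fgfbp3, the log2 fold change was -0.59 with sex as a covariate and -0.53 without both WT replicate 4 and KO replicate 2. Since the gene was selected on the separation of these 8 mice, these values are a description and no sign of stability. The summed level of 10 markers of astrocytes and neural stem cells was at 4680 to 5365 CPM in WT and at 4400 to 4775 CPM in KO mice, so the groups overlapped. Of the 10 markers, 2 had an unadjusted p under 0.05 in edgeR, against 1.88% of all genes tested, and 0 had an adjusted p under 0.1. The part of this summed level in the level of Fgfbp3 was not tested.

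**Figure D3:**
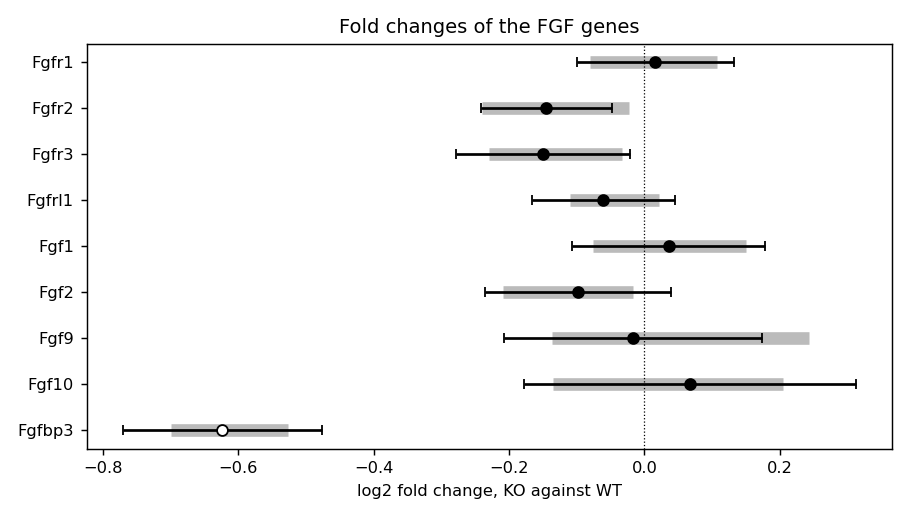
Log2 fold change of KO against WT for each FGF gene (points) with 1 SE on either side (bars). Grey bands give the range over 20 alternative fits. The open point marks Fgfbp3, which was chosen for this contrast and not tested. Its bar comes from the values that chose it and is no test of the difference. The 8 receptors and ligands lie between -0.15 and 0.07, and Fgfbp3 lies at -0.62.

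Several receptors and ligands had alike patterns over the 8 mice. Likeness of pattern was measured as the mean absolute difference of log2 CPM, standardised over the 8 mice, between genes with a mean above 1 CPM. Ranked by their likeness to Fgfr3, Fgfrl1 was number 6 of 14451 genes, at a difference of 0.21 SD. Ranked by likeness to Fgfr1, Fgf1 was number 99, at 0.33 SD. Fgf10 was number 14045 for Fgfr1, at 1.47 SD, so its levels ran through the mice in another order. For Fgfbp3, the closest of the other 8 genes was Fgfr2, at 0.66 SD and number 875. All genes here share the same 8 libraries, and these ranks are descriptions.

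Outside the FGF genes, the genes most like Fgfr3 included the ubiquitin ligase gene Cbl (0.16 SD) and Rapgef3 (0.19 SD). Those most like Fgfr1 were Itih3 (0.16 SD), Jag2, a Notch ligand (0.17 SD), and Evpl (0.17 SD). Those most like Fgfr2 were Pogk (0.15 SD), Prodh, which degrades proline (0.20 SD), and Bmp2k (0.25 SD). Those most like Fgfbp3 were D630003M21Rik (0.22 SD), Tmem259 (0.23 SD) and Pik3r4 (0.23 SD). The pattern of Fgfbp3 holds the separation of the genotypes that chose it, so likeness to it favours genes lower in KO mice.

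Both mice in which Fgfr1, Fgfr3 and Fgf1 were highest also had the highest summed levels of 8 markers of septal and hypothalamic neurons, 450.5 CPM in KO replicate 2 and 111.5 CPM in WT replicate 4, against 22.7 to 90.8 CPM in the other 6 mice. Avp, which encodes vasopressin, was at 110.0 CPM in KO replicate 2, 12.9 CPM in WT replicate 4 and 14.4 CPM in KO replicate 4. Oxt, which encodes oxytocin, was at 89.1, 22.5 and 9.46 CPM in the same mice. KO replicate 4, with 90.8 CPM of the summed markers, was thus near WT replicate 4 in these markers. It had 58.9 CPM of Fgfr1, 88.2 CPM of Fgfr3 and 90.1 CPM of Fgf1. KO replicate 2 was also the highest in summed markers of ependymal cells (62.5 CPM), choroid plexus (82.5 CPM) and neuroblasts (570 CPM). The choroid plexus markers did not all follow this order. Ttr, 1 of them, was at 7.72 CPM in KO replicate 2, against 29.3 CPM in WT replicate 3 and 17.6 CPM in KO replicate 1. WT replicate 4 had the highest sum of 5 markers of oligodendrocyte precursors, 297 CPM against 188 to 237 CPM. Whether the tissues that these markers stand for had a part in the levels of the receptors and ligands was not tested. Without both mice the log2 fold changes were 0.0075 for Fgfr1, -0.12 for Fgfr3 and 0.02 for Fgf1.

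**Figure D4:**
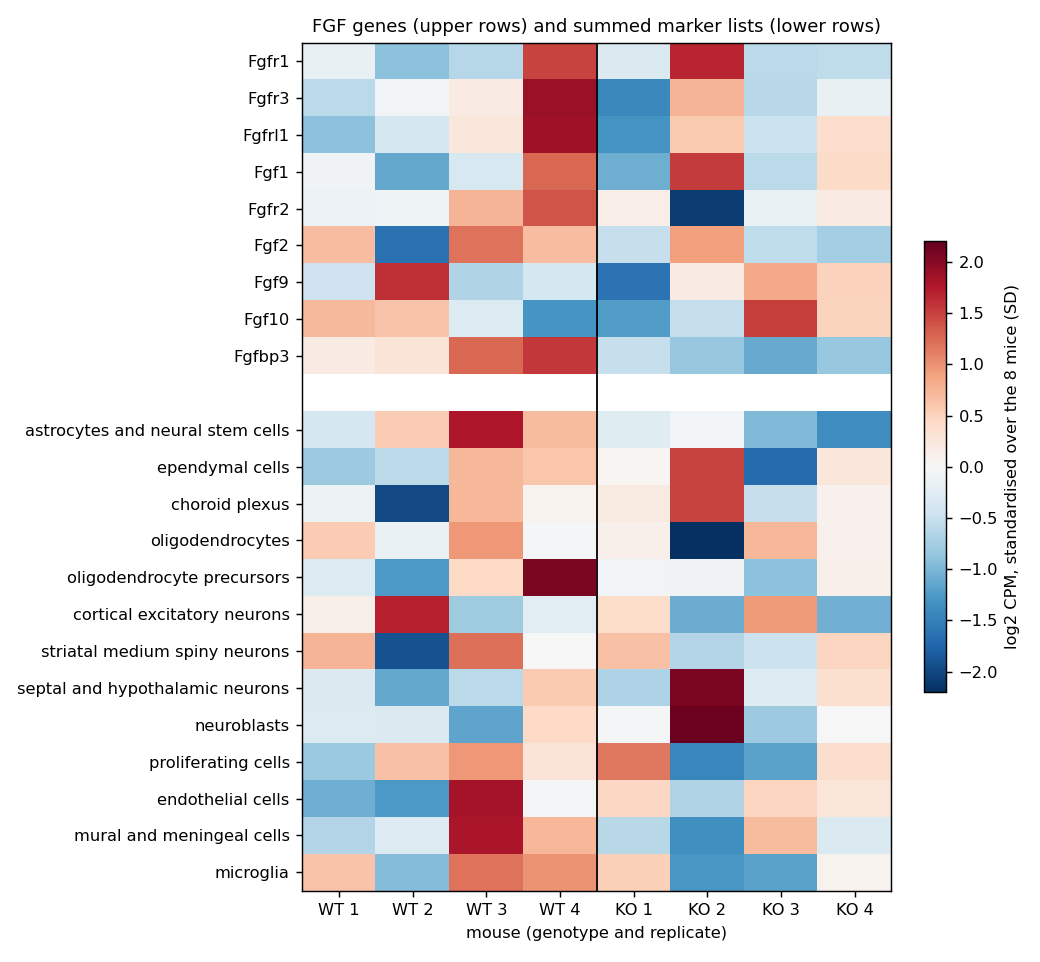
Log2 CPM of the 9 FGF genes (upper rows) and log2 summed CPM of 13 marker lists (lower rows) in each mouse, standardised over the 8 mice (colour, in SD; red is high and blue is low); the black line separates WT from KO mice. Fgfr1, Fgfr3, Fgfrl1 and Fgf1 are high in WT 4 and KO 2, Fgf9 is high in WT 2, and Fgfbp3 is above its mean in the 4 WT mice and below it in the 4 KO mice.

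Of the transcripts with either exon, most carried the IIIc exon in all 3 receptor kinases. In Fgfr1, transcripts with the IIIc exon summed to between 15.8 and 26.1 TPM, and the 2 transcripts with the IIIb exon alone were listed at 0 in all 8 mice. A further transcript, Fgfr1-208, annotated as subject to nonsense-mediated decay, holds both exons and was at 0.582 to 1.40 TPM, and it was counted with neither form. In Fgfr3, transcripts with the IIIc exon summed to between 22.3 and 46.9 TPM. The IIIb exon of Fgfr3, shown above, was in transcripts at 0 to 0.342 TPM, at most 1.01% of the 2 forms, with a value above 0 in 4 of 8 mice. Salmon divides reads among similar transcripts by estimation, so low values of a form are uncertain.

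Fgfr2 was the receptor with a measurable IIIb form. Its share of the TPM of both forms was 8.91%, 13.4%, 10.95% and 14.2% in WT mice and 5.23%, 5.90%, 7.28% and 12.1% in KO mice. The means were 11.9% ± 2.39 in WT and 7.64% ± 3.12 in KO mice (SD, n = 4 each). The 3 lowest mice were KO mice, and KO replicate 4 lay among the WT mice, so the groups overlapped, and the difference was not tested. The IIIb form rested on 113 to 339 estimated reads per mouse, and 38.4% to 45.7% of the TPM of Fgfr2 was in transcripts with neither exon, such as Fgfr2-217 and the retained-intron transcript Fgfr2-221.

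**Figure D5:**
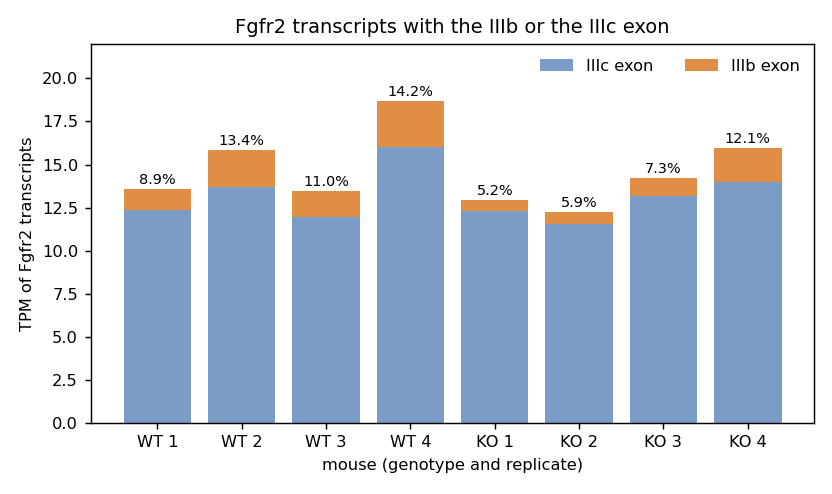
Summed TPM of the Fgfr2 transcripts that carry the IIIc exon (blue) or the IIIb exon (orange) in each mouse, with the share of the IIIb form printed above each bar. The share lies between 8.91% and 14.2% in WT mice and between 5.23% and 12.1% in KO mice.

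The share held by the leading transcript passed the test for a difference in none of the 5 genes tested. Fgfr1-202 held 63.8% ± 2.83 of the TPM of Fgfr1 in WT and 61.2% ± 4.08 in KO mice (exact permutation p = 0.314). Fgfr3-201 held 47.9% ± 7.53 and 52.8% ± 4.45 (exact permutation p = 0.343), and Fgfr2-207 held 25.5% ± 3.20 and 26.4% ± 4.24 (exact permutation p = 0.771). Fgfrl1-201 held 40.7% ± 2.04 and 39.8% ± 1.70 (exact permutation p = 0.514), and Fgf1-201 held 96.9% ± 1.84 and 98.7% ± 0.779 (exact permutation p = 0.114). Errors are SDs with n = 4 a group, the tests were two-sided, and the adjusted p over the 5 genes was 0.571 or above. Fgf10 and Fgfbp3 were each counted on 1 transcript in all mice.

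Of 11 further paracrine FGF ligands, 6 passed the filter on low counts, and Fgf4, Fgf6 and Fgf8 had no counts in any mouse. The most abundant in TPM was Fgf3, at a mean of 4.11 TPM over the 8 mice, above Fgfbp3, Fgf2 and Fgf10. It was at 4.44 ± 1.68 CPM in WT and 4.86 ± 1.24 CPM in KO mice (SD, n = 4 each). Fgf18 followed at a mean of 1.61 TPM, beside Fgf22 at 1.54 TPM, though in CPM, which is not set per length, Fgf22 was higher, at 1.37 and 1.35 CPM against 0.989 and 0.909 CPM for Fgf18. Of the 3 hormone-like ligands, Fgf15 was the gene that passed the filter, with a maximum of 32 counts in a mouse. Fgf23 did not pass, with at most 6 counts. Fgfr4 did not pass the filter either, with at most 20 counts in a mouse, so the 4 receptors described above were those that this tissue expressed at a testable level. The Klotho co-receptor Kl was at 6.26 ± 2.59 CPM in WT and 5.73 ± 1.48 CPM in KO mice (SD, n = 4 each), and the carrier Fgfbp1, a relative of Fgfbp3, was at 0.126 to 1.19 CPM with overlapping groups. The intracellular FGF homologous factors, which bind sodium channels in neurons and are not secreted, were abundant, with Fgf12 at 127 ± 33.4 and 139 ± 21.6 CPM and Fgf13 at 119 ± 25.8 and 99.7 ± 16.7 CPM (SD, n = 4 each).

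No further gene of the pathway passed the test for a difference between KO and WT mice. Of 80 further genes in 9 lists, 70 were tested with edgeR's quasi-likelihood test. An adjusted p under 0.1 was reached by 0 of the 70, against 0.00566% of all genes tested. An unadjusted p under 0.05 was reached by 0 of the 70, against 1.88% of all genes tested. Counts of 0 in 70 genes lie near these shares. DESeq2 called 0 of the 70 as well. With sex as a covariate it called 2, Fgf13 and Etv5, in a fit that called 201 genes in all. With transcript lengths and sex it called 1, Etv5, in a fit that called 214 genes in all. The groups overlapped in all 70, and 1.53% of all genes tested had groups that did not overlap, so this count of 0 also lies near its share. Log2 fold changes were below 0 in 42 of the 70, against 50.3% of all genes tested. Their median was -0.03, where all genes tested had a median of -0.00094. Among 12 heparan sulfate core proteins, which hold FGFs at the cell surface, the median was -0.05, and the most abundant, Sdc3 and Sdc2, had log2 fold changes of -0.01 (SE 0.14) and 0.05 (SE 0.18). Among 15 heparan sulfate enzymes the median was -0.02, with Hs6st2 at 0.04 (SE 0.17) and Extl3 at -0.13 (SE 0.089). Among 11 adaptors and effectors of the receptors the median was 0.01, with Grb2 at 0.03 (SE 0.058) and Crk at 0.01 (SE 0.070). Among 6 modulators that bind the receptors the median was 0.03, with Ncam1 at 0.07 (SE 0.11) and Cdh2 at 0.05 (SE 0.073).

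Among 13 feedback inhibitors and target genes of FGF and ERK signalling, 11 had log2 fold changes below 0, against 50.3% of all genes tested. The median was -0.10, and none passed either threshold in edgeR. Etv5 was called by DESeq2 with sex as a covariate, both without and with transcript lengths. Spred1, an inhibitor of ERK activation, was at -0.09 (SE 0.11), and the immediate early gene Egr1 was at -0.15 (SE 0.25). The lowest values, singled out after they were seen, were those of the ERK phosphatase gene Dusp6, at 35.9 ± 9.11 CPM in WT and 29.1 ± 4.62 CPM in KO mice, and of Etv5, at 91.0 ± 20.2 and 74.3 ± 16.1 CPM (SD, n = 4 each), with overlapping groups in both. Both genes were highest in WT replicate 2, at 47.4 and 118 CPM. This was the male of the WT group and the mouse highest in summed cortical markers. Without it the median of the list was -0.08.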

How the data were processed

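The authors quantified polyA-selected libraries (FASTQ files from bcl2fastq 2.20) with Salmon against Gencode M29 and deposited, without further normalization, a gene table of estimated counts and transcript tables of estimated counts and TPM. The strand setting, and how transcripts were summed to genes, are not given in the sources used here. Gene symbols came from a table of identifiers. Transcript names and exons came from Gencode M21, an older annotation, which matched 97.4% of transcripts and at least 99.2% of reads. It was matched by identifier and length and no genome coordinates are given.

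Estimated counts were rounded and compared in R 4.3.3 with edgeR 4.0.16 (TMM, filterByExpr, quasi-likelihood test, no covariate, Benjamini-Hochberg adjustment over 17669 genes, threshold 0.1). The SE is the log2 fold change over the square root of F. The 9 genes, the pathway and marker lists, and the tests were chosen with earlier results of these data known. Transcript shares were tested by exact permutation. Nothing beyond separate mice is stated of the replicates. On simulated counts for KO against WT, edgeR found 177 of 200 genes given a log2 change of 2 and made 25 other calls. The receptors and ligands had log2 fold changes between -0.15 and 0.07, and power at that size was not measured. Alternatives included DESeq2 1.42.0. Genes named from each list were the 2 with the highest mean TPM and any with an unadjusted p under 0.05 or groups without overlap, and for Fgfbp3 and the 3 receptor kinases the 3 genes most alike in pattern. Of these, 1 gene and 1 exon sequence are not reported here.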

Additional observations from a re-analysis of the deposited data

Results flagged for a closer look

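Values of the 9 genes, and shares of the leading transcripts of 7 of them, were looked at within each genotype for a mouse far from its group, by Dixon's ratio of the gap to the range. Of 32 groups of 4 mice, 4 were past the critical value, or 12.5%, where chance gives about 1 in 20. In 3 of the 4 the mouse was KO replicate 2, which had 75.9 CPM of Fgfr1 (58.7 to 60.5 CPM in the other KO mice), 13.9 CPM of Fgf2 (11.1 to 11.4 CPM) and 41.5 CPM of Fgfr2 (51.1 to 53.0 CPM). The same mouse held the highest summed level of septal and hypothalamic markers, 450.5 CPM. In the remaining group it was WT replicate 2, with 18.2 CPM of Fgf9 (11.7 to 12.4 CPM in the other WT mice), which also had 2020 CPM of summed cortical markers. Whether these markers account for the levels was not tested. Genotype by sex was tested for each gene in an edgeR model with an interaction term, and the smallest adjusted p of the 9 was 0.657. The WT group held 1 male, WT replicate 2, so sex and that mouse cannot be told apart in this test.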

How the results depend on the processing

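The finding that 0 of the 8 receptors and ligands passed an adjusted p under 0.1 held in all 20 alternatives, with a smallest adjusted p of 0.844. Over all genes, the count of calls, 1 in the fit reported, was 12 with DESeq2, 14 with DESeq2 and transcript lengths, 2 without a filter, 0 with at least 10 counts in every mouse, 2 with sex as a covariate, 201 and 214 with DESeq2 and sex without and with transcript lengths, 3 in female mice alone, and 0 to 3 with each mouse left out. Without both WT replicate 4 and KO replicate 2, an alternative chosen after seeing the data, it was 0. The cause of these differences was not tested. With the replicate number as a block the count was 0 and that of the receptors and ligands 0. Same-numbered mice correlated between -0.22 and 0.27 in their deviations. WT replicate 2 and KO replicate 3, the highest in cortical markers, correlated at 0.54. These correlations showed no pairing by number. They could not exclude one, since the mice also differed in markers of neighbouring tissue.

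Signs near 0 turned in 5 genes. With each mouse left out, log2 fold changes ran from -0.081 to 0.11 for Fgfr1, -0.11 to 0.022 for Fgfrl1, -0.077 to 0.14 for Fgf1, -0.098 to 0.16 for Fgf9 and -0.14 to 0.20 for Fgf10. In female mice alone they were 0.0071 for Fgfrl1 and 0.24 for Fgf9. Over the 20 alternatives the values lay between -0.24 and -0.02 for Fgfr2, -0.23 and -0.03 for Fgfr3, -0.21 and -0.02 for Fgf2, and -0.70 and -0.53 for Fgfbp3, whose selection fixed its direction. The share of Fgf1-201 differed by 1.84 percentage points in TPM and 0.283 in estimated counts. Depth limits Fgfbp3 and Fgf10 most, at 156 to 487 counts in a mouse.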
